A study of Mus musculus with 14 samples.

Results

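Cell cycle and DNA replication genes were followed in cultured mouse pancreatic stellate cells (PSCs) and in livers of mice carrying a pancreatic tumor. The set was 43 genes, chosen by name for their known roles and matched by symbol, out of 16481 genes in the PSC table and 54532 in the liver table. All 43 were found in both tables. Every one of them passed the filter on low values in PSCs, and 42 passed it in liver, where Bub1 had too few counts. The genes were sorted by known function into 10 roles, from control of G1 to cytokinesis.

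A dividing cell copies its DNA in S phase and separates the copies in mitosis. E2F factors switch on the genes for cyclin E, the MCM helicase and nucleotide supply at the end of G1, and the genes of mitosis are switched on later, in G2, largely through FOXM1 and the MuvB complex. Stellate cells, the fat-storing fibroblast-like cells of the pancreas, leave quiescence and divide when they become activated, whereas most hepatocytes of an adult liver are resting.

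RNA-Seq was performed on 14 samples. PSCs from 3 preparations were each given DMSO, the solvent, or Yoda1 at 25 μM, a chemical agonist of the mechanically gated channel PIEZO1, on Matrigel-coated plates with serum. The duration of this treatment is stated differently in different places of the study's text, and the study's methods name human PSCs for the facility that made these libraries, while the labels and the gene identifiers are those of mouse. All 8 livers came from adult mice injected in the tail of the pancreas with KPCY cells, a mouse pancreatic ductal adenocarcinoma line with a fluorescent tracer, which kept their own TRPV4. The groups were WT (n = 2; the study's WT mice carried Piezo1 fl/fl), TRPV4-KO (n = 3; germline Trpv4-/-, so that no single cell type lacked the channel alone) and WT + GSK219 (n = 3; gavaged daily with GSK2193874, a blocker of TRPV4). The comparison of PSCs asked what PIEZO1 activation does to these genes, and those of livers asked what loss or block of TRPV4 in the host does. The labels say that replicates are biological, but not whether the WT mice received the vehicle.

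Depth was 27312894 to 39070539 recovered reads per PSC library and 15567031 to 17395299 counts per liver. In PSCs, 13 of 14 stellate cell and fibroblast markers were in the table and detected, with a summed normalized value of 1004970 to 1102990 with DMSO and 484983 to 606954 with Yoda1. Ductal or tumor epithelial markers (10 of 10 detected) were also present, at a sum of 85005 to 122085 with DMSO and 73309 to 157464 with Yoda1. The level of Piezo1 itself differed by -0.08 on the log2 scale between treatments (adjusted p = 0.62 by limma). The deleted gene Trpv4 kept reads in the TRPV4-KO livers, with 15, 5 and 23 counts against 43 and 53 in WT and 20, 30 and 36 with GSK219, and the difference of 1.71 on the log2 scale (SE 0.50) between WT and TRPV4-KO had an adjusted p of 0.16 by edgeR and 0.036 by DESeq2. Counts over the whole gene cannot show which part of it was deleted.

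The sequences in front of these genes are shown first, since members with different promoter letters are set side by side further on. RefSeq promoters of GRCm38.p6, from 250 bases before to 50 bases after the start, were at hand for 34 members. They were searched on both strands for the cell cycle genes homology region (CHR), spelled TTTGAA or with a C in the middle as TTCGAA. They were also searched for the CCAAT box, spelled by its name, and for E2F-type letters. The latter were TTTGGCG, its close variant that is spelled TTTCGCG, and another form known from E2F target genes, TTCCCGC. None of these motifs contains another. A gene was counted where any of its promoters held the letters. A CHR was found in 17 of 34 members (50%) and in 21.7% of all 27025 genes with a promoter. Each of those 17 members also had a CCAAT box, a pair held by 8.61% of all genes. CCAAT boxes were in 25 members against 41.1% of all genes, and E2F-type letters in 8 members against 7.64%. The 6 promoters shown first are those of the members with the pair and the smallest p in the PSC comparison, and Rrm1 stands for the S-phase members with E2F-type letters. Capitals mark CHR and CCAAT letters, read on either strand, in the first 6, and the E2F-type TTCCCGC, 67 bases before the start, in Rrm1. Each is written 5′ to 3′ along the strand of its gene.
Cenpa promoter, chr5:30666636-30666935, plus strand: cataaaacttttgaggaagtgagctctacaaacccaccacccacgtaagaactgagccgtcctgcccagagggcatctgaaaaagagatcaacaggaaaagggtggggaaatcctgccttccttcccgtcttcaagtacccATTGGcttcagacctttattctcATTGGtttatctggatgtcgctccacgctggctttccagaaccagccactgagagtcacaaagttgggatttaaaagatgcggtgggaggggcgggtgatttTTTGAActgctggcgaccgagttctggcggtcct
Plk1 promoter, chr7:122159185-122159484, plus strand: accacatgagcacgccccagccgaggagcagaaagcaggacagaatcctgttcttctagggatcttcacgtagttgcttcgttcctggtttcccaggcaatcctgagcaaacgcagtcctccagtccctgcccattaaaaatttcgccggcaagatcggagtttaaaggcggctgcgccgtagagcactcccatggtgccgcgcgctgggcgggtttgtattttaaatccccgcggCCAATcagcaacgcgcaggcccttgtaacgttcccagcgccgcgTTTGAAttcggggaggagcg
Kif23 promoter, chr9:61946750-61947049, minus strand: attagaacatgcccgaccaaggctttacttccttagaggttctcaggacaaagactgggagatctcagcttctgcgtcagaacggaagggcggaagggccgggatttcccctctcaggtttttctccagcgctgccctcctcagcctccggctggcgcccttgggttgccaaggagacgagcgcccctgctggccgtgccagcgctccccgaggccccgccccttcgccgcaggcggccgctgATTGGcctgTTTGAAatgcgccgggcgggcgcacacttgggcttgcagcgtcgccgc
Ube2c promoter, chr2:164769679-164769978, plus strand: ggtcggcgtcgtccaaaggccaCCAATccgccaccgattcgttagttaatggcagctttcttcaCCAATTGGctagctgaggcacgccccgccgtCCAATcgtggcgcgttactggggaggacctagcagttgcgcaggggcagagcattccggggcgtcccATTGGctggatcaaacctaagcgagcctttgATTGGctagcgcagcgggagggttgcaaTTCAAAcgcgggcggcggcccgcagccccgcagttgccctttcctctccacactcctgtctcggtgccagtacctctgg
Cdc20 promoter, chr4:118437294-118437593, minus strand: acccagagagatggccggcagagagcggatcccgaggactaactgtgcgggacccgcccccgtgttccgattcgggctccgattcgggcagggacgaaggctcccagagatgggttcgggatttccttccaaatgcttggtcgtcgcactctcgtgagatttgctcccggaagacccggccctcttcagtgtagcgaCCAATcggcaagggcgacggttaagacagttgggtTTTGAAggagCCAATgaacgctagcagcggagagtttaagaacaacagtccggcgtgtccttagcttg
Mki67 promoter, chr7:135716330-135716629, minus strand: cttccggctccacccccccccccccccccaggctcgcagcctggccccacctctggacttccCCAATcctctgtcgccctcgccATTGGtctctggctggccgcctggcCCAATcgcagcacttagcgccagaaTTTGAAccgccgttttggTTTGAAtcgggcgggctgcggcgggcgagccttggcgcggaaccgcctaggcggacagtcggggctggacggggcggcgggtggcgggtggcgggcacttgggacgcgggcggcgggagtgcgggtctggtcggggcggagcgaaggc
Rrm1 promoter, chr7:102441445-102441744, plus strand: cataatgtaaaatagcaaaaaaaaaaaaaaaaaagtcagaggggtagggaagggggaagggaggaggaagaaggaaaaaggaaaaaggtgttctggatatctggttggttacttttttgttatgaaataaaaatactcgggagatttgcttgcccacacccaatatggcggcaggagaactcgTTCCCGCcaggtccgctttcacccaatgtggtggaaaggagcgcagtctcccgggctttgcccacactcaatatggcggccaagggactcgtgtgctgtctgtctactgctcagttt
A match of this kind describes letters and not a bound site. In Ube2c one CCAAT and one ATTGG share letters, and the CHR is read on the other strand. The start of the CHR lay between 116 bases before (Mki67) and 31 bases after (Plk1) the gene start in these 6 promoters. Promoters of Aurkb, Mcm4, Kif20a, Gins2, Ccne2, Ccnd1, Ccna2, Tpx2 and Foxm1 were not used here.

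In PSCs, most genes of DNA replication and mitosis were lower with Yoda1 than with DMSO in each preparation. The mitotic genes differed by more in the third preparation than in the first 2. Of 43 members, 40 had a log2 fold change below 0, and the median was -0.31, against -0.01 over all 15145 genes tested. Without Yoda1 replicate 3, 25 members were below 0 and the median was -0.04, in a fit that kept the low DMSO library of the same preparation. With preparation 3 left out as a pair, 40 members were below 0 and the median was -0.16. Comparing the 3 Yoda1 with the 3 DMSO libraries as groups, limma called none of the 43 after Benjamini-Hochberg adjustment over all genes, while 2.19% of all genes were called higher and 2.47% lower. At an unadjusted p under 0.05 there was 1 lower member, Tyms, and no higher one, where 11.5% of all genes were lower and 11.2% higher, and on the recovered reads edgeR (2.26% of all genes higher, 2.32% lower) and DESeq2 (5.4% and 5.27%) also called 0 members. Paired within preparations, 35 of 43 members (81.4%) were lower with Yoda1 in all 3, against 29.4% of all genes. With the preparation as a block, limma called 9 members lower (20.9%) and 0 higher, where 9.55% of all genes were called lower and 8.68% higher, and 26 members were lower at an unadjusted p, as were 18.4% of all genes. The same block on the recovered reads gave 9 lower members with edgeR (against 8.88% of all genes) and 18 with DESeq2 (against 6.98%), and 0 higher with either. In cultures, fewer dividing cells and less of each transcript per dividing cell cannot be told apart.

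**Figure D1:**
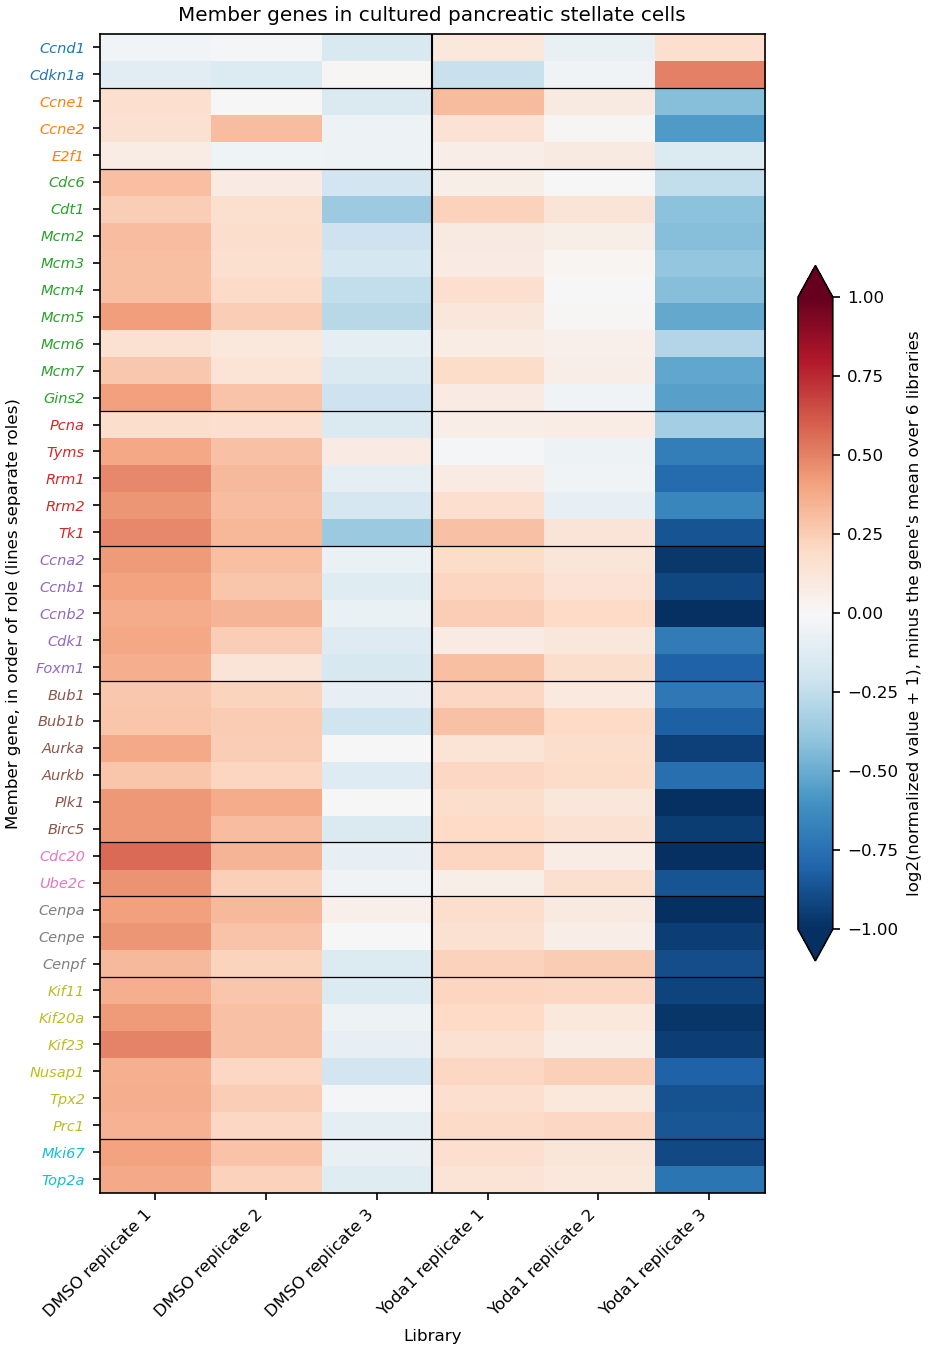
Normalized value of each of the 43 member genes (rows, in order of role) in the 6 PSC libraries (columns), as log2(value + 1) minus the gene's mean over the libraries. Yoda1 replicate 3 held the lowest value of the 6 in 41 members, and DMSO replicate 1 the highest in 37.

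The 9 genes of origin licensing and firing were all lower with Yoda1 in all 3 preparations, with median log2 ratios of -0.22, -0.12 and -0.21 in preparations 1, 2 and 3. Mcm5, a subunit of the MCM helicase that unwinds DNA at the fork (chromosome 8 from 75109569 to 75128439 of GRCm38), had normalized values of 4318, 3834 and 2660 in DMSO replicates 1, 2 and 3 and of 3484, 3243 and 2261 in the Yoda1 replicates. Each Yoda1 value lay below its own DMSO value, but DMSO replicate 3 lay below Yoda1 replicates 1 and 2, so the groups overlapped. The log2 fold change of Mcm5 was -0.26, with an adjusted p of 0.53 by limma between groups and of 0.015 with the block. Gins2, a subunit of the GINS complex that joins the helicase when an origin fires, read 1233, 1130 and 802 with DMSO and 977, 904 and 636 with Yoda1. Its log2 ratios were nearly equal in the 3 preparations, at -0.34, -0.32 and -0.34, and it fell with the block (log2 fold change -0.33, adjusted p = 0.013 by limma). The helicase genes Mcm2 and Mcm3 were also called lower with the block, with log2 fold changes of -0.18 and -0.19 and adjusted p of 0.045 and 0.037 by limma. Mcm4, at 4778, 4436 and 3266 with DMSO and 4361, 3897 and 2885 with Yoda1, missed the threshold (-0.17, adjusted p = 0.052 by limma with the block). Mcm6 and Mcm7 had log2 fold changes of -0.11 and -0.18, and were less even, with ratios of -0.08, -0.05 and -0.20 for Mcm6 and -0.09, -0.07 and -0.37 for Mcm7. The licensing factors Cdc6 and Cdt1, which load the helicase in G1, had -0.13 and -0.03, and neither passed the test with the block.

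The 5 genes of the replication clamp and of nucleotide supply were all lower in all 3 preparations, with median log2 ratios of -0.27, -0.34 and -0.50. With the block 4 of the 5 fell, as did 4 of the 9 licensing genes, where 9.55% of all genes were called lower. Of these 8, Tyms, Rrm1 and Rrm2 were still called without preparation 1, and none without preparation 2. Tyms, thymidylate synthase, which makes the thymidine nucleotide (chromosome 5 from 30058202 to 30073617), read 2327, 2178 and 1887 with DMSO and 1754, 1717 and 1098 with Yoda1. It was the 1 member whose Yoda1 libraries all lay below all DMSO libraries, as was so for 15.1% of all genes. Its log2 fold change was -0.51 (SE 0.19), with an adjusted p of 0.18 by limma between groups and 0.018 with the block. Rrm1, the large subunit of ribonucleotide reductase, which makes deoxynucleotides, read 14438, 13005 and 9764 with DMSO and 10994, 10127 and 6069 with Yoda1. The regulated small subunit Rrm2 read 6535, 5969 and 4288 with DMSO and 5411, 4545 and 3061 with Yoda1. Both subunits were thus lower in each preparation, and both fell with the block (Rrm1 by 0.48 and Rrm2 by 0.38 on the log2 scale, adjusted p = 0.011 and 0.0092 by limma). Tk1, thymidine kinase of the salvage route, read 1747, 1578 and 967 with DMSO, the third well below the others, and 1529, 1368 and 686 with Yoda1 (log2 fold change -0.30, adjusted p = 0.043 by limma with the block). Pcna, the sliding clamp of DNA polymerase, changed least of the 5 (3596, 3578 and 2875 against 3337, 3349 and 2511), with a log2 fold change of -0.13 and an adjusted p of 0.10 with the block.

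**Figure D2:**
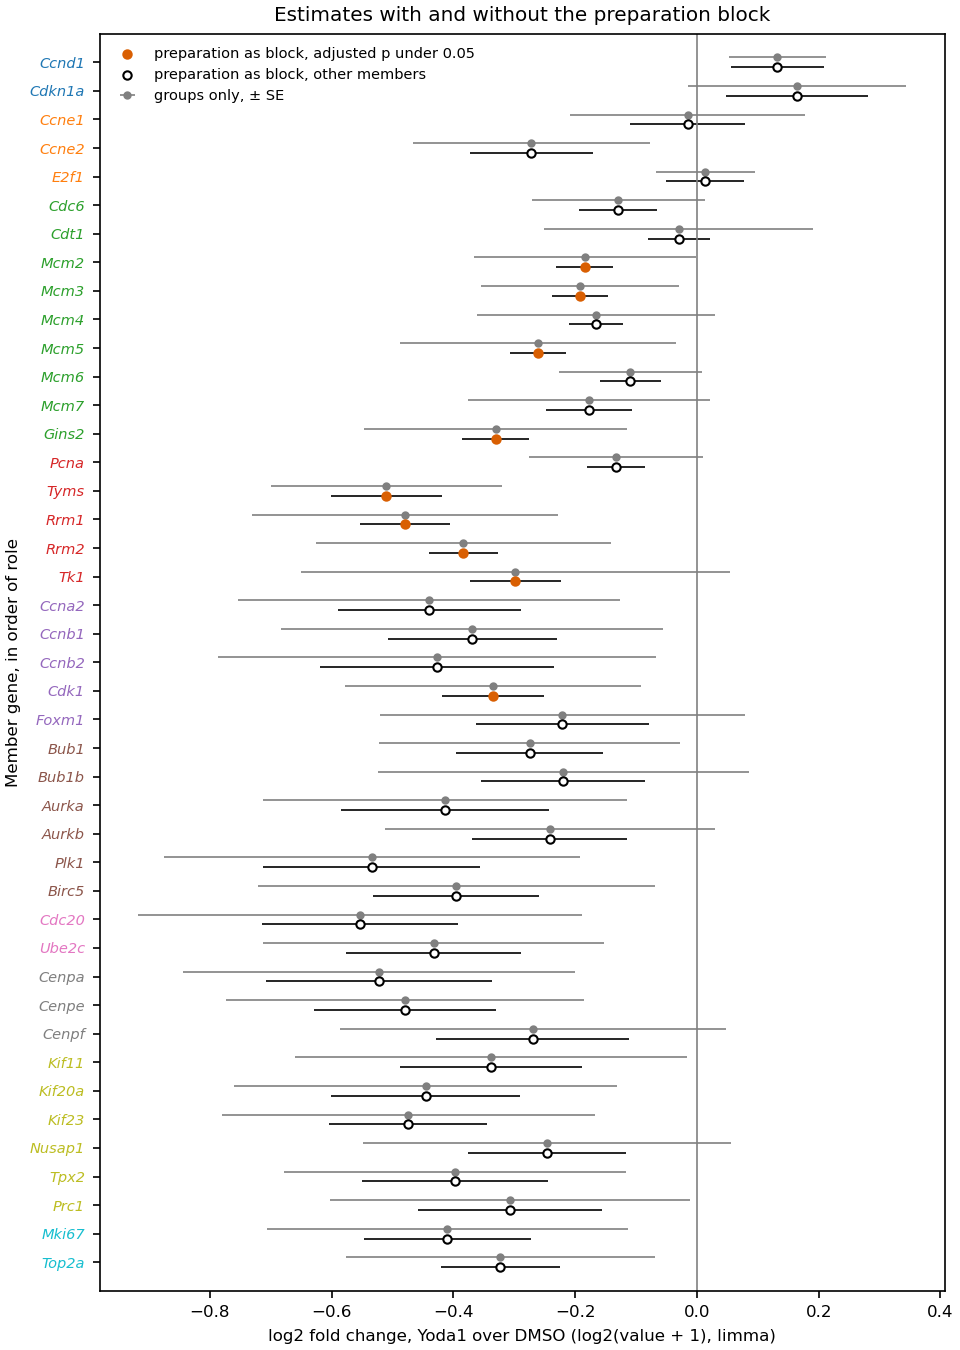
Log2 fold change of each member, Yoda1 over DMSO, ± SE by limma, between groups (grey) and with the preparation as a block (black outline, or filled orange where the adjusted p was under 0.05). Estimates of both fits are equal, the SE is smaller with the block, and the 9 filled points belong to Mcm2, Mcm3, Mcm5, Gins2, Tyms, Rrm1, Rrm2, Tk1 and Cdk1.

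In the genes of G2 and mitosis the differences were less even across preparations. Cdk1, the kinase that drives entry into mitosis, read 4559, 4139 and 3182 with DMSO and 3694, 3761 and 2151 with Yoda1. It was the 1 gene of these roles that fell with the block (log2 fold change -0.34, adjusted p = 0.044 by limma). Its partner cyclins Ccna2, Ccnb1 and Ccnb2 had log2 fold changes of -0.44, -0.37 and -0.43, and Foxm1, the transcription factor of the G2 program, had -0.22, none called. Plk1, the polo kinase of spindle assembly (chromosome 7 from 122159439 to 122169873), read 3716, 3556 and 2733 with DMSO and 3107, 2969 and 1288 with Yoda1. The first 2 preparations had the same log2 ratio of -0.26, and the third had -1.08. The log2 fold change was -0.53, with an SE of 0.34 and an adjusted p of 0.40 by limma between groups. With the block the SE was 0.18 and the adjusted p 0.10. Cdc20, an activator of the anaphase-promoting complex, read 4410, 3779 and 2822 against 3462, 3142 and 1368, with ratios of -0.35, -0.27 and -1.04. It had the lowest log2 fold change of the 43 (-0.55, adjusted p = 0.076 by limma with the block). Ube2c, the ubiquitin-conjugating enzyme of the same complex, read 3822, 3288 and 2723 against 2907, 3123 and 1533. Aurka, Aurkb, Bub1, Bub1b and Birc5, kinases and partners of the spindle and its checkpoint, had log2 fold changes between -0.41 (Aurka) and -0.22 (Bub1b).

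All genes of the kinetochore and the spindle had their lowest value in Yoda1 replicate 3. Cenpa, the histone variant that marks the centromere, read 2253, 2114 and 1748 with DMSO and 1914, 1796 and 817 with Yoda1. Its ratio in preparation 3, -1.10, was the lowest of any member, against -0.24 in each of the others. Cenpe, a kinesin at the kinetochore, had a log2 fold change of -0.48, while Cenpf, a large coiled-coil protein of the kinetochore, read 3296, 3072 and 2390 against 3090, 3144 and 1422 (-0.27) and was slightly higher with Yoda1 in preparation 2. Kif23, a motor of the central spindle, came closest to a call in this role, with values of 2878, 2501 and 1928 against 2260, 2151 and 1064 (-0.47, adjusted p = 0.065 by limma with the block). The spindle genes Kif11, Kif20a, Nusap1, Tpx2 and Prc1 had log2 fold changes of -0.34, -0.45, -0.25, -0.40 and -0.31. Mki67, whose protein coats mitotic chromosomes and is the usual stain for dividing cells (chromosome 7 from 135689784 to 135716361), read 14891, 13772 and 10706 with DMSO and 12636, 12245 and 6048 with Yoda1. The log2 fold change of Mki67 was -0.41 (SE 0.30), with an adjusted p of 0.46 by limma between groups and 0.10 with the block. Top2a, the topoisomerase that untangles sister chromatids, read 12508, 11322 and 8861 against 10619, 10391 and 5811 (-0.32, adjusted p = 0.075 with the block).

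Cdkn1a and Ccnd1, the genes of G1 control, had log2 fold changes above 0, and neither passed the test. Cdkn1a, the CDK inhibitor p21, read 7954, 7823 and 8686 with DMSO and 7390, 8409 and 12233 with Yoda1. The treatments overlapped, with the highest value in Yoda1 replicate 3, the library with the lowest values of most other members. The value of 0.16 for its log2 fold change had an adjusted p of 0.63 by limma between groups and 0.37 with the block. Ccnd1, cyclin D1, the growth-factor-driven cyclin of G1, read 4544, 4574 and 4158 against 4984, 4391 and 5194 (0.13, adjusted p = 0.37). Of the genes of the G1/S step, Ccne1 and E2f1 had log2 fold changes of -0.02 and 0.01, and Ccne2, the second cyclin E, had -0.27 (976, 1087 and 849 against 973, 885 and 594). None of these 5 genes passed the test in either fit of the 3 preparations.

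The preparations differed more in the mitotic genes than in the licensing genes. The median log2 ratio of all 43 members was -0.19 in preparation 1, -0.13 in preparation 2 and -0.63 in preparation 3, where all genes had medians of -0.01, 0.00 and -0.01. In preparation 3, 41 members were lower with Yoda1, and 36 members had their lowest ratio there. For the cyclins, Cdk1 and Foxm1 the medians were -0.19, -0.14 and -0.79, for the mitotic kinases and checkpoint -0.15, -0.10 and -0.72, and for the spindle and cytokinesis -0.17, -0.11 and -0.83. The 2 genes of the anaphase-promoting complex had -0.37, -0.17 and -0.94, and the kinetochore genes had -0.24, -0.22 and -0.94. Ccnd1 and Cdkn1a turned the other way in preparation 3, with ratios of 0.32 and 0.49. With 1 library per treatment in a preparation, a difference between preparations could not be tested.

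**Figure D3:**
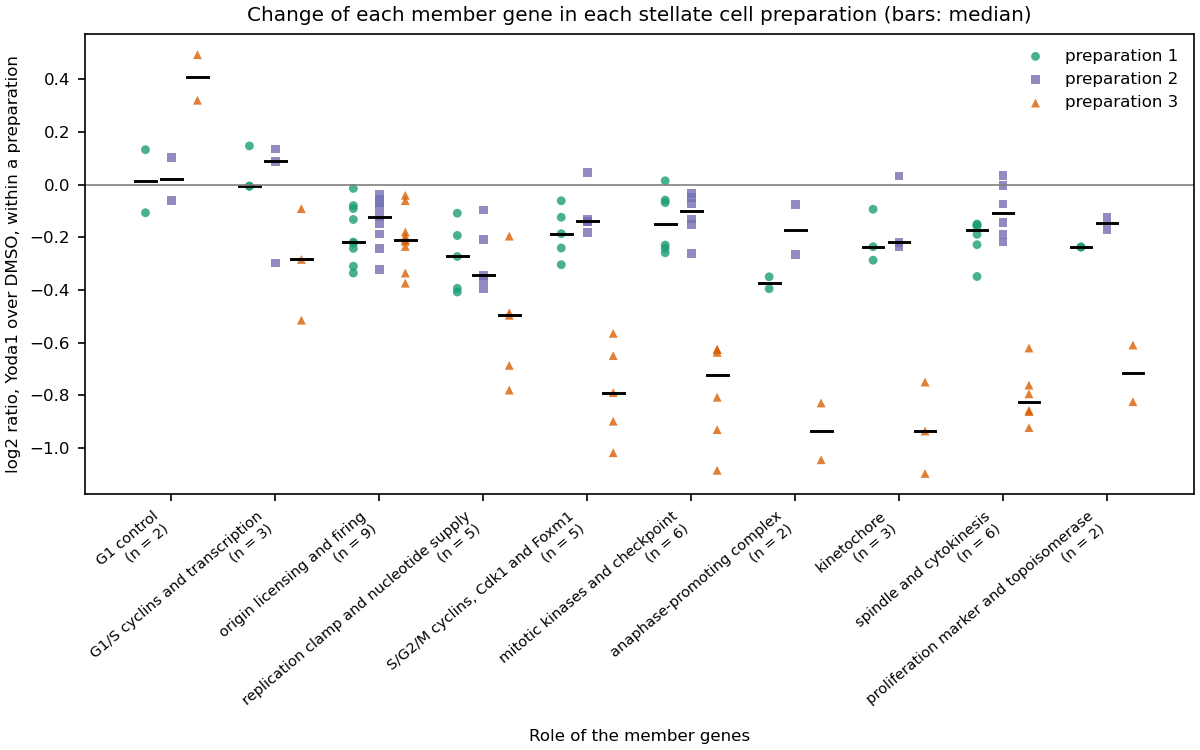
Log2 ratio of Yoda1 over DMSO for each member (points) in each of the 3 PSC preparations, by role, with the median as a bar. In preparation 3 the members of the cyclin, mitotic and spindle roles lie between -0.56 and -1.10, while the 9 licensing genes keep medians of -0.22, -0.12 and -0.21.

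Preparation 3 was also low without Yoda1. Its DMSO library was the lowest DMSO library in 42 of 43 members and lay below Yoda1 replicates 1 and 2 in 41. Relative to each gene's DMSO mean, the members' median log2 level was 0.20, 0.08 and -0.27 in the DMSO libraries and -0.0030, -0.04 and -0.93 in the Yoda1 libraries. Markers of acinar and epithelial cells also differed in this preparation. The summed value of 7 acinar markers was 986, 3594 and 6260 with DMSO and 1238, 4450 and 12387 with Yoda1, and that of the epithelial markers was 86762, 85005 and 122085 with DMSO and 73309, 80974 and 157464 with Yoda1, in both cases highest in preparation 3. Their part in the lower values was not tested. Endothelial markers (6 of 8 in the table) summed to 1802 to 2169 with DMSO and 1240 to 1451 with Yoda1, and macrophage markers (5 of 8) to 931 to 999 and 739 to 1323.

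Calls with the block depended on which preparations were in the fit. Without preparation 3, limma called 23 of 43 members lower (53.5%), where 16.6% of all genes were called lower, although the members' median was then only -0.16. Without preparation 1 the median was -0.37 and 4 members were called lower (9.3%, against 5.74% of all genes), namely Ccne2, Tyms, Rrm1 and Rrm2. Without preparation 2 the median was -0.39 and no member was called lower, against 1.13% of all genes, with 26 members at an unadjusted p under 0.05, as were 10.3% of all genes.

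Members were also set side by side by the letters of their promoters. The 17 members with the pair had median log2 ratios of -0.24, -0.12 and -0.79. The 6 with E2F-type letters and no such pair (Cdc6, Cdt1, Mcm3, Mcm5, Mcm6 and Rrm1, of which the last 4 also had a CCAAT box) had -0.23, -0.12 and -0.20, and the 11 with neither had -0.19, -0.13 and -0.50. In preparation 3 the classes overlapped, from -1.10 to -0.21 with the pair and from -0.69 to -0.04 with E2F-type letters. Among tested genes outside the set, 684 genes had a promoter with the pair, and their medians were -0.01, -0.01 and -0.03. These medians are descriptions of genes that share libraries, and the difference between the classes was not tested.

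Per kilobase of transcript in DMSO cells, the highest level of the 43 was that of Cdkn1a, at 2295 per kb, followed by Rrm2 (2020), Cdc20 (1965), Plk1 (1517), Pcna (1396) and Mki67 (1304). The lowest were Cenpf and Cdc6, at 189 and 181 per kb.

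In livers, most of these genes had higher values in WT than in either TRPV4-KO or GSK219, but no member passed the test in any comparison. Against TRPV4-KO, 35 of 42 tested members were above 0 with a median log2 fold change of 0.55, and against GSK219, 37 of 42 with a median of 0.63, where all 15118 genes tested had medians of -0.01 and 0.00. The comparisons share the 2 WT livers, so they are not independent. With edgeR's quasi-likelihood test and Benjamini-Hochberg adjustment, 0 members were called against TRPV4-KO, where 0.165% of all genes were called higher and 0.126% lower in WT. Against GSK219, 0 members were called and 0% of all genes in either direction. At an unadjusted p under 0.05, 4 members (Plk1, Ube2c, Cenpf and Mcm7) were higher and 1 (Tk1) was lower in WT against TRPV4-KO, and 5 (Cenpe, Plk1, Foxm1, Cdk1 and Ccnb1) were higher and 0 lower against GSK219. Over all genes these shares were 9.5% and 7.61% against TRPV4-KO, and 5.87% and 2.34% against GSK219, so that the counts of members against TRPV4-KO were near or below the background. DESeq2 called 1 member, Tk1, lower in WT than in TRPV4-KO (adjusted p = 0.011), where it called 2.27% of all genes lower and 3.2% higher, and none against GSK219, where it called 0.212% and 0.557%. The WT livers both lay above all TRPV4-KO livers in 13 members (31%, against 17.7% of all genes) and below them in 2 (4.76%, against 15.5%). They lay above all GSK219 livers in 15 members (35.7%, against 15.6% of all genes) and below them in 0 (against 11.7%).

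**Figure D4:**
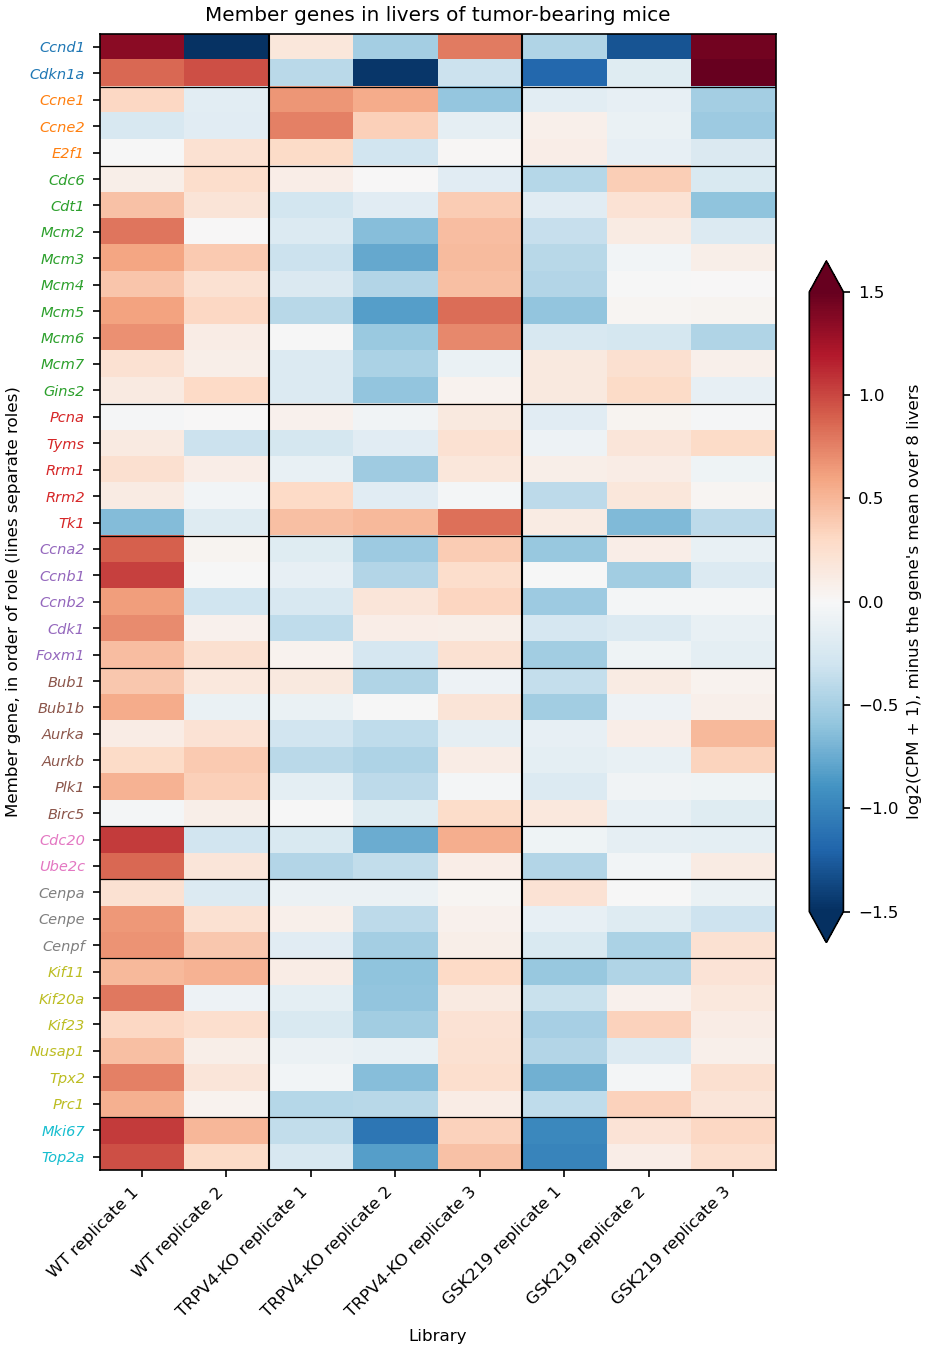
Level of each of the 43 member genes (rows, in order of role) in the 8 livers (columns), as log2(CPM + 1) minus the gene's mean over the livers, where CPM is the count scaled to library size. WT replicate 1 was the highest liver in 22 of the 42 tested members, TRPV4-KO replicate 2 the lowest in 19 and GSK219 replicate 1 the lowest in 12.

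Many mitotic genes had few counts in liver and log2 fold changes near or above 1. Mki67 had 197 and 137 counts in the WT livers, 62, 31 and 122 in TRPV4-KO and 36, 105 and 115 with GSK219. Both WT livers were above all others, and the TRPV4-KO and GSK219 groups spread over a wide range. Means were 10.1 ± 2.97 CPM (SD, n = 2) in WT, 4.33 ± 2.55 (n = 3) in TRPV4-KO and 5.16 ± 2.52 (n = 3) with GSK219. Its log2 fold change was 1.21 (SE 0.57) against TRPV4-KO and 0.96 (SE 0.56) against GSK219, with adjusted p of 0.32 and 0.73 by edgeR. Plk1 had 24 and 21 counts in WT, 9, 5 and 12 in TRPV4-KO and 8, 11 and 11 with GSK219. Both WT livers were above all others, while the other groups overlapped each other, and its log2 fold changes of 1.33 (SE 0.43) and 1.14 (SE 0.42) had adjusted p of 0.19 and 0.57. Cenpf showed the same order, with 35 and 28 counts in WT, 12, 6 and 19 in TRPV4-KO and 11, 7 and 22 with GSK219 (1.32 and 1.22), as did Ube2c, with 41 and 21 against 7, 8 and 19 and against 7, 15 and 19 (1.43 and 1.17). Cenpe, with 32 and 21 counts in WT, 16, 7 and 17 in TRPV4-KO and 12, 11 and 9 with GSK219, had log2 fold changes of 0.96 and 1.29. Kif11 was also higher in both WT livers than in all 6 others. Foxm1 was so in CPM by a small margin, since WT replicate 2 and TRPV4-KO replicate 3 had 32 counts each (1.86 and 1.85 CPM). Bub1, which was not tested, had 13 and 9 counts in WT, 8, 0 and 5 in TRPV4-KO and 1, 8 and 7 with GSK219.

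Several mitotic genes were high in 1 WT liver alone. Ccnb1 had 40 counts in WT replicate 1 and 12 in WT replicate 2, against 9, 4 and 18 in TRPV4-KO and 11, 3 and 8 with GSK219. Its log2 fold change against GSK219, 1.80 (SE 0.75), was the highest of the members in that comparison and had an adjusted p of 0.59 by edgeR. Cdc20 had 65 and 17 counts in WT and 17, 7 and 44 in TRPV4-KO, and Ccnb2 had 43 and 16 against 16, 26 and 34. In both genes only WT replicate 1 was above the TRPV4-KO livers. Cdk1 had 53 and 30 counts in WT, 16, 28 and 31 in TRPV4-KO and 19, 21 and 24 with GSK219, with log2 fold changes of 0.70 and 0.95. Top2a and Ccna2 had log2 fold changes of 0.94 and 0.90 against TRPV4-KO, and 0.94 and 1.07 against GSK219. Of the remaining genes of the spindle and checkpoint, Aurkb (18 and 22 counts in WT, 5, 4 and 15 in TRPV4-KO) had 1.29 against TRPV4-KO, Kif20a 0.99, Kif23 0.66, Nusap1 0.40, Tpx2 1.02, Prc1 0.89, Aurka 0.58 and Bub1b 0.34. Birc5 and Cenpa did not follow them, at -0.02 and 0.09.

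**Figure D5:**
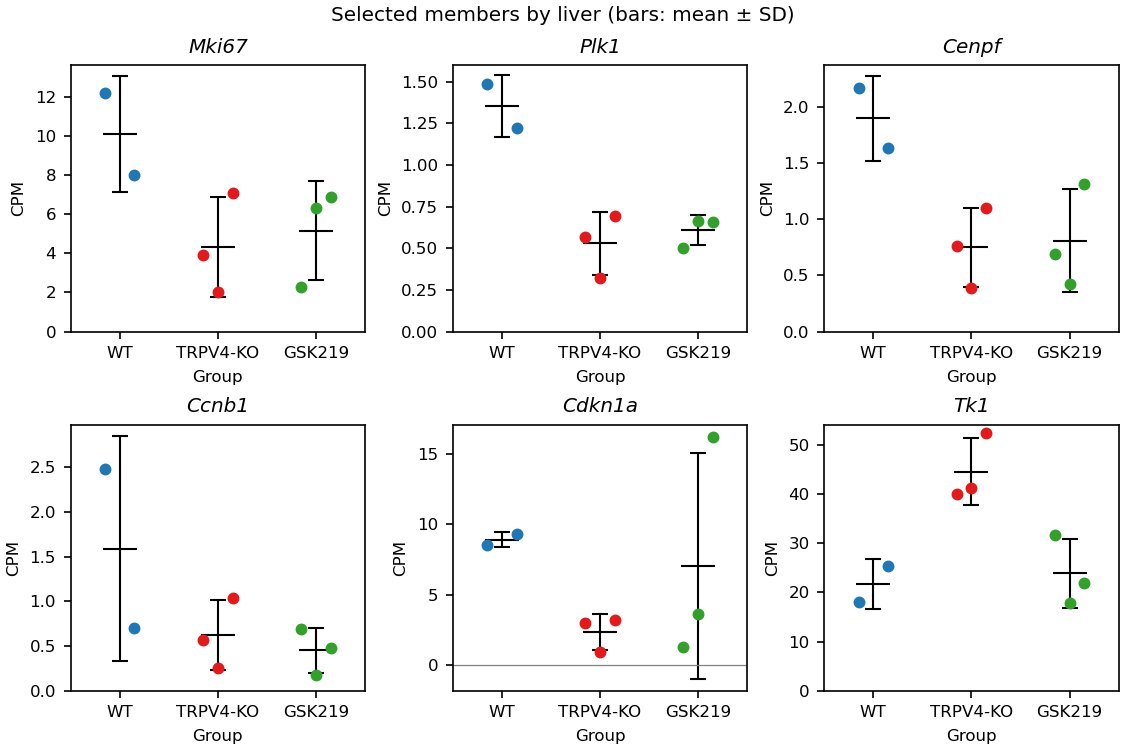
CPM of 6 members, chosen after their values were seen, in each liver (points) with the mean ± SD per group (WT n = 2, TRPV4-KO n = 3, GSK219 n = 3). Mki67, Plk1 and Cenpf are higher in both WT livers than in the 6 others, Ccnb1 is high in 1 WT liver, Cdkn1a is highest in 1 GSK219 liver, and Tk1 is higher in all 3 TRPV4-KO livers than in WT.

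All 9 genes of replication licensing had a log2 fold change above 0 in both comparisons, with medians of 0.48 against TRPV4-KO and 0.62 against GSK219. Mcm3 had 203 and 185 counts in WT, 98, 66 and 198 in TRPV4-KO and 91, 128 and 143 with GSK219, with TRPV4-KO replicate 3 as high as the WT livers. Its log2 fold change against TRPV4-KO, 0.67 (adjusted p = 0.40 by edgeR), was called when that liver was left out (adjusted p = 0.042), a fit in which 4.91% of all genes were called higher and 3.62% lower in WT. Mcm6 had 211 and 144 counts in WT, 122, 76 and 231 in TRPV4-KO and 101, 104 and 90 with GSK219 (0.30 and 0.83). Mcm7 had 300 and 287 counts in WT, 214, 170 and 253 in TRPV4-KO and 278, 311 and 278 with GSK219. The 3 TRPV4-KO livers were the lowest of the 8, with log2 fold changes of 0.43 (SE 0.15, unadjusted p = 0.022, adjusted p = 0.22 by edgeR) against TRPV4-KO and 0.0006 against GSK219. Mcm2, Mcm4 and Mcm5 had 0.58, 0.38 and 0.48 against TRPV4-KO and 0.66, 0.52 and 0.72 against GSK219. Gins2 (16 and 21 counts in WT, 9, 3 and 15 in TRPV4-KO), Cdc6 and Cdt1 had 1.00, 0.52 and 0.37 against TRPV4-KO.

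The genes of nucleotide supply and of the G1/S step had no common direction, and edgeR called none of them. Tk1 had 292 and 435 counts in WT, 634, 636 and 904 in TRPV4-KO and 504, 297 and 367 with GSK219. Every TRPV4-KO liver was above both WT livers, with a log2 fold change of -1.04 (SE 0.26), an unadjusted p of 0.0040 and an adjusted p of 0.14 by edgeR, while GSK219 differed from WT by -0.14. The gene body of Tk1 shares 169 bases with Afmid, arylformamidase, on the opposite strand, whose counts ran in a like order (328 and 580 in WT, 723, 721 and 853 in TRPV4-KO, and 601, 555 and 523 with GSK219). Whether the counting used strand is not given in the sources used here, so reads of such a pair cannot be told apart where they overlap. Pcna had 403 and 433 counts in WT, 417, 375 and 486 in TRPV4-KO and 356, 429 and 417 with GSK219, with log2 fold changes of -0.07 and 0.04. Rrm1 had 0.33 and 0.14, Rrm2 -0.01 and 0.12, and Tyms -0.03 and -0.26. Ccne2, with 18 and 21 counts in WT, 51, 34 and 22 in TRPV4-KO and 26, 22 and 12 with GSK219, was below TRPV4-KO in both WT livers (-0.93, adjusted p = 0.38 by edgeR), and its log2 fold change against GSK219 was -0.07. It shares 5622 bases with Ints8, a subunit of the Integrator complex, on the opposite strand, which had 223 and 245 counts in WT, 305, 342 and 223 in TRPV4-KO and 265, 296 and 215 with GSK219. Of the 43 members, 13 overlap another protein-coding gene in the annotation. Ccne1 had -0.30 and 0.56, and E2f1 0.10 and 0.22, against TRPV4-KO and GSK219.

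Cdkn1a and Ccnd1 spread widely between livers of 1 group. Cdkn1a had 138 and 159 counts in WT, 47, 14 and 55 in TRPV4-KO and 21, 60 and 271 with GSK219. The WT livers were above all TRPV4-KO livers and within the GSK219 range, with log2 fold changes of 1.91 (SE 0.94, adjusted p = 0.36 by edgeR) and 0.33 (SE 0.91). Ccnd1 had 1517 and 211 counts in WT, 643, 388 and 1079 in TRPV4-KO and 415, 234 and 1671 with GSK219. Its highest liver in each group (the first WT replicate and the last replicate of the other groups) was the 1 with Xist reads (13681 to 15754 counts, against 0 to 7 elsewhere), and these 3 livers had 0 counts on Y-linked genes. Within livers with Xist reads, the median of the members' differences in log2(CPM + 1) was 0.26 for WT minus TRPV4-KO (33 of 42 above 0) and 0.43 for WT minus GSK219 (36 of 42). Among livers with Y-linked reads the medians were 0.40 (32 of 42) and 0.25 (34 of 42). Each split has 1 WT liver, so no test was made within it.

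Between TRPV4-KO and GSK219 livers the members had no common direction. Of 42, 25 were above 0 and the median log2 fold change was 0.10, with 0 members called by edgeR, where 0.0595% of all genes were called higher and 0.0463% lower in TRPV4-KO. At an unadjusted p under 0.05 there was 1 member in each direction, Tk1 higher and Mcm7 lower in TRPV4-KO, where 3.48% of all genes were higher and 2.64% lower, and DESeq2 called 0 members, with 0.471% of all genes higher and 0.431% lower. Tk1 had the highest value, 0.90, and Cdkn1a the lowest, -1.58. Without TRPV4-KO replicate 3 the median moved to -0.35.

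Single livers weighed on the size of these medians. The members' median level, relative to each gene's mean over the livers, was 0.51 and 0.10 in the WT livers, -0.16, -0.42 and 0.20 in TRPV4-KO and -0.29, -0.03 and -0.01 with GSK219. Without WT replicate 1, the median log2 fold change was 0.26 against TRPV4-KO and 0.35 against GSK219. Per kilobase, Pcna (10.5 CPM per kb), Ccnd1 (9.94) and Tk1 (5.98) had the highest levels over all livers, and Cenpf (0.0686) the lowest.

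Markers of macrophages, neutrophils and stellate cells were also higher in both WT livers than in all others, while the other marker lists differed in direction or overlapped. Macrophage and Kupffer cell markers (8 of 8 detected) summed to 1158 to 1338 CPM in WT, 324 to 692 in TRPV4-KO and 328 to 813 with GSK219. For neutrophils and their progenitors the sums of 12 markers were 138 to 149, 8.55 to 32.3 and 17.7 to 40.7 CPM, and for stellate cells and fibroblasts (14 of 14 detected) 512 to 722, 186 to 400 and 265 to 422. Hepatocyte markers (8 of 8 detected) were lower in WT, at 65082 to 78354 CPM against 87157 to 106271 and 86344 to 97276. Epithelial markers (10 of 10 detected), which the tumor line would also carry, summed to 680 to 711, 447 to 689 and 513 to 645 CPM, so that WT and TRPV4-KO overlapped. Endothelial markers reached 460 to 518, 292 to 455 and 341 to 474, erythroid markers 398 to 568, 547 to 566 and 352 to 544, and T, NK and B cell markers 4.49 to 9.22, 6.45 to 15.8 and 4.65 to 7.05. Their part in the members' values was not tested.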

How the data were processed

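Gene counts of the 8 livers were deposited by the authors without normalization. For PSCs the authors deposited a normalized signal per gene, in which 100% of values were whole reads divided by 1 size factor per library (tolerance 0.05). The deposited fold changes and p-values of the authors' own comparison, and 7 columns of counts of no labelled sample, were not used. HISAT2 2.0.5 and Trim Galore are named in the submitters' processing notes, with annotation matching GRCm38.

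PSC values were analyzed as log2(value + 1) with limma 3.58.1 (trend, robust; genes of at least 10 in at least 3 libraries) in R 4.3.3. The replicate numbers of the labels mark PSC preparations, whose DMSO and Yoda1 libraries deviated together (correlations across genes 0.43, 0.26 and 0.53), so a fit with the preparation as a replicate block is given beside the first. Recovered reads, on which edgeR called 343 genes higher and 351 lower, and DESeq2 1.42.0 were alternatives. Livers were fitted together with edgeR 4.0.16 (TMM, minimum count 10, robust quasi-likelihood). A call is a Benjamini-Hochberg adjusted p under 0.05 over all genes tested. The steps were tested on simulated data. All 43 members could be named. Of each of the other 7 lists, up to 4 genes with the smallest p per comparison were named. Members and lists were chosen with earlier results of these data known. Replicates differed beyond sampling noise. Reads had no molecular identifiers and are not independent molecules. Alternatives were the block, other pseudocounts, filters, normalizations and tests, a term for sex-linked reads, and each library left out.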

Additional observations from a re-analysis of the deposited data

How the results depend on the processing

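In PSCs, no member was called between groups with pseudocounts of 0.1 or 10, without the filter on low values, with edgeR or DESeq2 on the recovered reads, or with any 1 library left out. The shares of all genes called in these fits ran from 0.106% higher and 0.145% lower (without Yoda1 replicate 2) to 5.4% and 5.27% (DESeq2). The replicate block, which pairs the preparations, gave 9 lower members with limma, 9 with edgeR and 18 with DESeq2, the last chosen after seeing the data. With 1 preparation left out, also chosen after seeing the data, the block gave 4 (without preparation 1), 0 (without preparation 2) and 23 (without preparation 3), and the cause was not tested. The members' median stayed below 0 with each library left out, between -0.47 (without DMSO replicate 3) and -0.04 (without Yoda1 replicate 3). With both libraries of preparation 3 left out it was -0.16. In livers, DESeq2 called 1 member lower in WT than in TRPV4-KO, Tk1, and leaving out a liver gave 0 to 1 higher, Mcm3 without TRPV4-KO replicate 3 (where 4.91% of all genes were called higher). With each liver left out in turn, the median ran from 0.26 to 0.79 against TRPV4-KO, from 0.35 to 0.88 against GSK219 and from -0.35 to 0.27 between TRPV4-KO and GSK219. Liver replicate numbers did not pair the samples. With them as a block, WT exceeded TRPV4-KO in 394 genes and lay below it in 137, against 25 and 19, and 0 members were called. A term for sex-linked reads called 0 members (2.3% of all genes higher and 1.24% lower in WT than in TRPV4-KO), with medians of 0.53 and 0.54. Most mitotic members had few counts in liver, which limits their precision.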

Other observations

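Other genes of the same processes were described in PSCs from lists that hold none of the 43 members. Of 70 other genes of mitosis, 68 had a log2 fold change below 0 (median -0.30), 54 were lower with Yoda1 in all 3 preparations (77.1%, against 29.4% of all genes), and 9 (12.9%) were called lower with the preparation as a block by limma, where 9.55% of all genes were called lower and 8.68% higher. Lmnb1, lamin B1 of the nuclear lamina, had -0.38 (adjusted p = 0.0069 with the block), and Spc24, a kinetochore subunit, had -0.65 (adjusted p = 0.0095). Of 45 other licensing and replisome genes, 41 were below 0 (median -0.15) and 9 (20%) were called lower with the block, among them Dut, which removes dUTP (-0.35, adjusted p = 0.0094), and Orc6, of the origin recognition complex (-0.35, adjusted p = 0.010). Without preparation 2, Orc6 was not called (adjusted p = 0.12 by limma with the block). Of 16 genes of replication-coupled repair, 12 were below 0 (median -0.08). Of 17 replication-dependent histone genes tested, 13 were below 0 (median -0.32), 5 were lower in all 3 preparations (29.4%, as of all genes), and H2afx alone was called with the block (-0.38, adjusted p = 0.0075 by limma). Of 27 p53 target genes, 17 were above 0 (median 0.08). With the block 3 were called higher and 4 lower (14.8%), and Trp53inp1, Gdf15, Btg2 and Aen had 0.40, 0.48, 0.31 and -0.21. Fas, a death receptor, and Phlda3 had -0.55 and -0.32.

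The other CDK inhibitors included a call between groups. Cdkn2b, p15, which blocks CDK4 and CDK6, read 1171, 1246 and 1830 with DMSO and 701, 574 and 592 with Yoda1, with no overlap (log2 fold change -1.16, adjusted p = 0.023 by limma). Cdkn2a, of the neighboring locus, read 301, 353 and 383 against 210, 163 and 100 (-1.18, adjusted p = 0.063 by limma between groups and 0.042 with the block). Of the 7 genes listed as other CDK inhibitors, which share the Cdkn symbol, 4 (57.1%) were called lower with the block, against 9.55% of all genes. The others called were Cdkn3 (-0.68), which encodes a phosphatase, and Cdkn2c (-0.40), and 2 of the 7 had a log2 fold change above 0. Among 24 other genes of G1, Rb and E2F control, Ccnd2, cyclin D2, was called lower (-0.34, adjusted p = 0.044 by limma) and Rbl2, the Rb relative p130, higher (0.30, adjusted p = 0.049), where 2.47% of all genes were called lower and 2.19% higher. With the block 6 (25%) were called lower and 1 higher, against 9.55% and 8.68% of all genes. In livers, 51 of 61 tested genes of the other mitosis list were above 0 in WT against TRPV4-KO (median 0.59) and 49 against GSK219 (median 0.51). The 43 tested genes of the licensing and replisome list had medians of 0.05 and 0.04, 11 histone genes 0.61 and 0.11, and 28 p53 targets 0.10 and 0.17. Of the 184 genes of all 7 lists tested in liver, edgeR called 0 in either comparison, with 16 higher and 1 lower in WT against TRPV4-KO at an unadjusted p under 0.05, and 13 and 1 against GSK219. Over all genes these shares were 9.5% and 7.61%, and 5.87% and 2.34%. DESeq2 called 4 higher and 1 lower against TRPV4-KO, namely Incenp, Arhgap11a, Btg2 and Pmaip1 higher and Spc24 lower, and 1 higher (Btg2) against GSK219, where over all genes it called 3.2% higher and 2.27% lower in the first comparison and 0.557% higher in the second. Of these, Pmaip1 and the p53 target Btg2 in liver were named after their values were seen.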
